A study of Mus musculus with 14 samples.

Results

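The proteasome transcripts of the left ventricle were followed across 14 Illumina expression arrays from male mice of the substrains C57Bl/6J and C57Bl/6N. The members are the genes whose row name begins with Psma, Psmb, Psmc, Psmd, Psme, Psmf or Psmg, leaving out the interferon-inducible immunoproteasome subunits Psmb8, Psmb9 and Psmb10. The signal table held 41 such rows among 18138, and 34 of the 41 were kept because their detection p, the array software's measure of signal above background, was under 0.05 on at least 3 arrays. One of the 34, Psmc3ip, shares the prefix only: it encodes a meiotic recombination factor named for its binding to a subunit. The remaining 33 are core subunits, regulatory subunits, assembly chaperones, activators and an inhibitor.

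The 4 groups were C57Bl/6J sham (3 arrays), C57Bl/6J angiotensin II (4 arrays), C57Bl/6N sham (3 arrays) and C57Bl/6N angiotensin II (4 arrays). The treated mice carried an osmotic mini-pump under the skin that released angiotensin II, a peptide that constricts vessels and loads the heart, for 48 h. The dose is 500 ng/kg, given per minute in one of the submitters' descriptions and per hour in another. The controls had a sham operation, no group carried an engineered allele, and neither age nor shared animals or batches are labelled, so p-values measure only the spread between these samples.

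The proteasome is the main protease for ubiquitin-tagged proteins in the cytosol and nucleus. Its 20S core stacks rings of alpha and beta subunits around a closed chamber whose beta subunits cut peptide bonds. The 19S cap recognises ubiquitin, removes it and unfolds the substrate with a ring of ATPases, while other caps (the PA28 family and PA200) open the core without ubiquitin. In heart muscle it turns over sarcomere and signalling proteins, and in mammalian cells the factor NRF1, the product of Nfe2l1, raises subunit genes together when proteasome activity is short.

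All values below are log2 normalised intensities and differences between them, tested with limma over the 9408 rows that passed the detection filter. A row's intensity depends on its probe, so levels of different genes are not compared. Detected rows made up 46.4% to 49.3% of each array. All 9 cardiomyocyte markers were above background on every array, whereas 6 of 7 B and T cell marker rows were below it on every array. Of the 14 arrays 2 recur below: on C57Bl/6J angiotensin II replicate 1 several members lay far from the rest of their group, and on C57Bl/6N sham replicate 1 the members' median deviation from the 6 sham arrays' mean was -0.08, against 0.02 and 0.03 on the other C57Bl/6N sham arrays. These departures were not confined to the members. Array weights, which limma sets by each array's scatter over all rows tested, were lowest for these arrays, at 0.171 and 0.328. On the first, the cardiomyocyte marker Ryr2 was 7.19, against 9.03 to 9.37 on the rest of its group. The other cardiomyocyte markers did not follow it as a list. The median deviation of the 9 rows was 0.05 on that array, against -0.01, -0.02 and 0 on the rest of its group. In whole ventricle, fewer cells of a type and less RNA per cell cannot be told apart.

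With angiotensin II, 1 of the 34 members rose in C57Bl/6N, where 9.45% of all rows tested rose, and 0 of 34 changed in C57Bl/6J, where 1.4% of rows did. The gene that rose was Psma5, a subunit of the alpha ring that gates entry to the core. Its log2 intensity was 11.77, 11.82 and 11.84 on the C57Bl/6N sham arrays and 12.28, 12.13, 12.31 and 12.09 on the C57Bl/6N angiotensin II arrays. In C57Bl/6J it was 11.83, 11.77 and 11.84 on the sham arrays and 11.85, 11.94, 11.98 and 11.83 on the treated ones. Every treated C57Bl/6N array lay above all 10 other arrays, which ranged from 11.77 to 11.98.

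The increase of Psma5 in C57Bl/6N was 0.39 ± 0.09 (log2, SE), or 1.31-fold, with an adjusted p of 0.00685. In C57Bl/6J the difference was 0.09 ± 0.09 (adjusted p = 0.671). The responses of the substrains differed by 0.31 ± 0.12, which did not pass the test (adjusted p = 0.229). Averaged over both substrains the increase was 0.24 ± 0.06 (adjusted p = 0.0155). Without C57Bl/6N sham replicate 1 the C57Bl/6N increase of Psma5 was 0.38 (adjusted p = 0.0251). RefSeq lists a pseudogene of Psma5, and probe sequences were not analysed here, so cross-hybridisation was not tested.

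The promoters of Psma5 and Psme4 are given because these were the members called in any comparison, and the sites of Psmb5, Psmb6 and Psmd9 are given as examples of a motif match, chosen because they hold it. Sequences are from RefSeq (GRCm38.p6), 5′ to 3′ on the gene's strand, from 250 bases before to 50 after the annotated start. The letters searched on both strands were TGACNNNGC, the core of the antioxidant response element to which NRF1 binds, and CCAAT, the NF-Y box. Capitals mark a match to TGACNNNGC or its reverse complement.
Psma5 promoter, chr3:108256676-108256975 (+): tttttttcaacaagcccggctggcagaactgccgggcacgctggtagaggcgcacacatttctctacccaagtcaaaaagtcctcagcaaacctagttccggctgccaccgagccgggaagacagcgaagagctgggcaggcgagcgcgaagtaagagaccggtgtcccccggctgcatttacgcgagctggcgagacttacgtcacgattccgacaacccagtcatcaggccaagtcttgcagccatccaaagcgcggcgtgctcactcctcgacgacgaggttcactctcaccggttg
Psme4 promoter, chr11:30771525-30771824 (+): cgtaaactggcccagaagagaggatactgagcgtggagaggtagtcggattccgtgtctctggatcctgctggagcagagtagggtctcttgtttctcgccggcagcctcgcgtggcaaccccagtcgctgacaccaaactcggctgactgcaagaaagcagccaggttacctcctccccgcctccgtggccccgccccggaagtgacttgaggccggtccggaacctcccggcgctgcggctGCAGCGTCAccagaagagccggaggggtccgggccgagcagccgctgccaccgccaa
Psmb5 site, chr14:54618024-54618052 (-): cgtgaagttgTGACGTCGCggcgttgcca
Psmb6 site, chr11:70525338-70525366 (+): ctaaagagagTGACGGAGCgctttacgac
Psmd9 site, chr5:123228149-123228177 (+): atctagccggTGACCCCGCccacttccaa

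The Psma5 window held neither motif, and the Psme4 window held 1 TGACNNNGC match, on the opposite strand. Promoters were available for 35 of the 41 rows, 38 windows in all because some genes have more than one listed start. TGACNNNGC occurred in 6 of these 38 windows (15.8%), those of Psmb5, Psmb6, Psmc6, Psmd9, Psmd12 and Psme4, and in 12.4% of all 32851 promoters. CCAAT occurred in 13 of 38 (34.2%) and in 37.4% of all promoters.

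**Figure D1:**
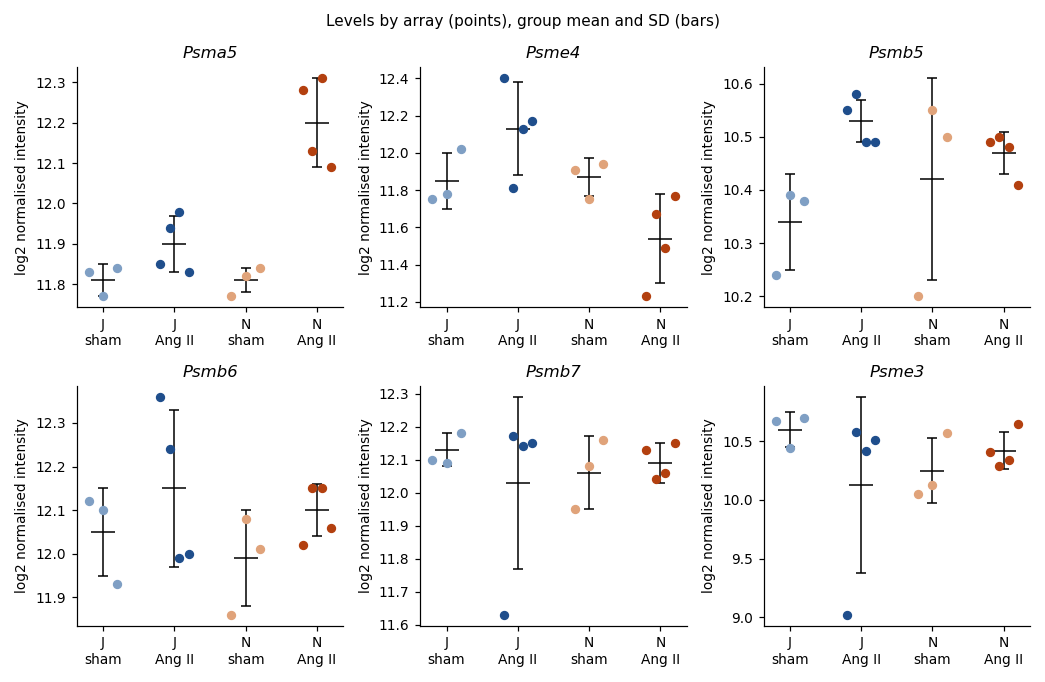
Log2 normalised intensity of Psma5, Psme4, the catalytic subunits Psmb5, Psmb6 and Psmb7, and Psme3 on each array, by group (J, C57Bl/6J; N, C57Bl/6N; Ang II, angiotensin II). Points are arrays and bars are the group mean and SD, on axes that do not start at 0. Psma5 is separated in C57Bl/6N angiotensin II (12.09 to 12.31), and 1 C57Bl/6J angiotensin II array is far below its group for Psmb7 (11.63) and Psme3 (9.02).

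The other alpha subunits, which build the outer rings of the core, had positive differences in C57Bl/6N that did not pass the test. Psma4 was 11.82, 11.85 and 11.91 on the C57Bl/6N sham arrays and 12.03, 11.98, 12.18 and 12.02 on the treated ones. These groups did not overlap, and the difference was 0.19 ± 0.09 (adjusted p = 0.153). In C57Bl/6J the Psma4 difference was -0.10 ± 0.09 (adjusted p = 0.626), and the difference of the responses, 0.29 ± 0.12, did not pass (adjusted p = 0.248). Over the 4 tested alpha rows (Psma2, Psma4, Psma5 and Psma7) the C57Bl/6N differences ran from 0.13 to 0.39 with a median of 0.17. The C57Bl/6J differences ran from -0.10 to 0.09. The alpha subunits Psma1, Psma3 and Psma6 were detected on 0 of 14 arrays and have no measured response.

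The catalytic subunits Psmb5, Psmb6 and Psmb7, which carry the chymotrypsin-like, caspase-like and trypsin-like sites, did not pass the test in either substrain. Psmb5, the target of bortezomib, was 10.24, 10.39 and 10.38 on the C57Bl/6J sham arrays and 10.55, 10.58, 10.49 and 10.49 on the treated C57Bl/6J arrays. The C57Bl/6J groups did not overlap, and the difference was 0.19 ± 0.09 (adjusted p = 0.363). In C57Bl/6N it was 10.20, 10.55 and 10.50 in sham and 10.49, 10.50, 10.48 and 10.41 with angiotensin II, so that the treated arrays lay inside the sham range. That difference was 0.05 ± 0.09 (adjusted p = 0.770).

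Psmb6 had group means of 12.05 ± 0.10 (SD, n = 3) in C57Bl/6J sham, 12.15 ± 0.18 (n = 4) in C57Bl/6J angiotensin II, 11.99 ± 0.11 (n = 3) in C57Bl/6N sham and 12.10 ± 0.06 (n = 4) in C57Bl/6N angiotensin II. Its differences were 0.10 ± 0.11 in C57Bl/6J and 0.11 ± 0.11 in C57Bl/6N (SE; adjusted p = 0.705 and 0.530). Psmb7 was 12.10, 12.09 and 12.18 on the C57Bl/6J sham arrays and 11.63, 12.17, 12.14 and 12.15 on the treated ones. All but replicate 1 of the treated arrays lay close to sham. The Psmb7 difference of -0.10 ± 0.12 in C57Bl/6J (adjusted p = 0.739) became 0.03 without that array. In C57Bl/6N the Psmb7 difference was 0.03 ± 0.12 (adjusted p = 0.901).

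Among the structural beta subunits, which complete the inner rings without a catalytic site of their own, Psmb3 had the third smallest p of the members in C57Bl/6N. It was 11.93, 12.30 and 12.35 in C57Bl/6N sham and 12.68, 12.41, 12.59 and 12.27 with angiotensin II. The groups overlapped, and the difference of 0.30 ± 0.12 (adjusted p = 0.098) was 0.16 without C57Bl/6N sham replicate 1. Psmb1 and Psmb4 had C57Bl/6N differences of 0.18 ± 0.14 and -0.02 ± 0.10. In C57Bl/6J the differences of Psmb1, Psmb3 and Psmb4 were -0.13, -0.02 and 0.08, none past the test.

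The 5 tested ATPases of the 19S base, which unfold substrates and open the gate of the core, stayed between -0.11 and 0.20 in C57Bl/6J and between -0.07 and 0.15 in C57Bl/6N. Psmc4 was 10.76, 10.76 and 10.64 in C57Bl/6J sham and 11.13, 10.87, 10.84 and 10.86 with angiotensin II, without overlap. Its difference of 0.20 ± 0.11 did not pass (adjusted p = 0.394) and was 0.13 without C57Bl/6J angiotensin II replicate 1. In C57Bl/6N Psmc4 differed by 0.15 ± 0.11 (adjusted p = 0.371). The other tested members of the ATPase ring, Psmc1, Psmc2, Psmc3 and Psmc5, had adjusted p-values between 0.546 and 0.947 in both substrains. Psmc6 was detected on 1 array only.

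Of the 9 tested non-ATPase subunits of the 19S cap, Psmd8, Psmd1 and Psmd14 stood nearest to a call. Psmd8, a lid subunit, was 10.34, 10.29 and 10.37 in C57Bl/6J sham and 10.52, 10.61, 10.59 and 10.50 with angiotensin II. The groups did not overlap, and the difference of 0.22 ± 0.08 had the smallest adjusted p of the members in C57Bl/6J, 0.223. In C57Bl/6N the Psmd8 difference was 0.01 ± 0.08 (adjusted p = 0.970).

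Psmd1, a large scaffold subunit of the base, was 9.12, 8.67 and 8.74 in C57Bl/6J sham and 8.03, 8.60, 8.42 and 8.59 with angiotensin II. The sham arrays all lay above the treated ones, and the difference was -0.44 ± 0.18 (adjusted p = 0.262). Replicate 1 was the lowest of the treated arrays, and with an array left out in turn the difference ran from -0.52 to -0.30. In C57Bl/6N Psmd1 was 7.89, 8.49 and 8.71 in sham and 8.61, 8.53, 8.65 and 8.69 with angiotensin II. Here sham replicate 1 lay far below the other arrays, and the difference of 0.26 ± 0.18 (adjusted p = 0.365) was 0.02 without it. The Psmd1 responses differed by 0.69 ± 0.26, which did not pass (adjusted p = 0.211) and was 0.45 without C57Bl/6N sham replicate 1.

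Psmd14, the lid enzyme that removes ubiquitin chains from substrates, was 8.76, 8.75 and 8.91 in C57Bl/6N sham and 9.28, 9.06, 9.59 and 9.01 with angiotensin II. The groups did not overlap, and the difference was 0.42 ± 0.17 (adjusted p = 0.111). In C57Bl/6J it was 8.96, 8.93 and 8.76 in sham and 9.72, 9.08, 8.90 and 9.02 with angiotensin II, a difference of 0.29 ± 0.17 (adjusted p = 0.443) that was 0.11 without replicate 1 of the treated arrays. Averaged over substrains the Psmd14 difference was 0.36 ± 0.12 (adjusted p = 0.0626), the second smallest of the members after Psma5. Psmd14 passed in C57Bl/6N when C57Bl/6J angiotensin II replicate 1 was left out (adjusted p = 0.024).

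The remaining lid and base members Psmd2, Psmd4, Psmd6, Psmd7, Psmd12 and Psmd13 had differences between -0.03 and 0.12 in C57Bl/6J and between -0.11 and 0.18 in C57Bl/6N. Psmd2, a base scaffold, did not overlap in C57Bl/6N, at 7.10, 7.11 and 7.14 in sham against 6.96, 7.04, 7.06 and 6.94, but its difference of -0.11 ± 0.11 did not pass (adjusted p = 0.516). Psmd6 was the kept row nearest to the detection limit, with a highest detection p of 0.043. Its intervals were the widest of the non-ATPase group, from -0.50 to 0.46 in C57Bl/6J.

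The assembly chaperones build the rings and leave the finished particle. Psmg3, which helps to form the alpha ring, was 7.77, 8.28 and 8.34 in C57Bl/6N sham and 8.67, 8.48, 8.66 and 8.08 with angiotensin II. The groups overlapped through replicate 4 of the treated arrays, and the difference of 0.34 ± 0.16 did not pass (adjusted p = 0.150) and was 0.16 without C57Bl/6N sham replicate 1. The other chaperones, Psmg2 for the alpha ring and Psmd9 and Psmd10 for the base, differed by -0.02, 0.05 and 0.13 in C57Bl/6N. In C57Bl/6J all 4 chaperone differences lay between -0.09 and -0.04.

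The activators did not move as a group. Psme1 and Psme2 encode the alpha and beta subunits of PA28, an interferon-inducible cap. Psme2 was 8.96, 9.67 and 9.44 in C57Bl/6N sham and 9.74, 9.77, 9.59 and 9.73 with angiotensin II. Its difference was 0.35 ± 0.14 (adjusted p = 0.0867), with overlapping groups, and was 0.15 without C57Bl/6N sham replicate 1. Its partner Psme1 differed by -0.12 ± 0.11 in C57Bl/6N (adjusted p = 0.474). In C57Bl/6J Psme1 differed by -0.10 ± 0.11 and Psme2 by 0.03 ± 0.14.

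Psme3, the nuclear cap PA28 gamma, was 10.67, 10.44 and 10.70 in C57Bl/6J sham and 9.02, 10.58, 10.42 and 10.51 with angiotensin II. Replicate 1 alone lay far below, and the difference of -0.47 ± 0.29 (adjusted p = 0.453) was -0.10 without it. In C57Bl/6N the Psme3 difference was 0.17 ± 0.29 (adjusted p = 0.736). The inhibitor Psmf1, known as PI31, differed by 0.13 ± 0.11 in C57Bl/6J and -0.09 ± 0.11 in C57Bl/6N (adjusted p = 0.601 and 0.626). Psmc3ip differed by 0.00 ± 0.14 and 0.08 ± 0.14.

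Psme4 encodes PA200, a single-chain nuclear cap linked in mammals to the degradation of acetylated histones. It was 11.75, 11.78 and 12.02 in C57Bl/6J sham and 12.40, 11.81, 12.13 and 12.17 in C57Bl/6J angiotensin II. It was 11.91, 11.75 and 11.94 in C57Bl/6N sham and 11.23, 11.67, 11.49 and 11.77 in C57Bl/6N angiotensin II. Within each substrain treated and sham arrays overlapped, whereas every treated C57Bl/6N array lay below every treated C57Bl/6J array.

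Neither response of Psme4 passed the test: 0.28 ± 0.15 in C57Bl/6J (adjusted p = 0.392), or 0.18 without replicate 1 of the treated arrays, and -0.33 ± 0.15 in C57Bl/6N (adjusted p = 0.139). The difference of the responses was -0.60 ± 0.21 (adjusted p = 0.188), the smallest adjusted p of the members in that comparison. Under angiotensin II, Psme4 was lower in C57Bl/6N than in C57Bl/6J by -0.59 ± 0.14, a ratio of 0.665 (adjusted p = 0.0173). That call was lost without C57Bl/6N angiotensin II replicate 1 (-0.48, adjusted p = 0.0739) or replicate 3 (-0.57, adjusted p = 0.0621).

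**Figure D2:**
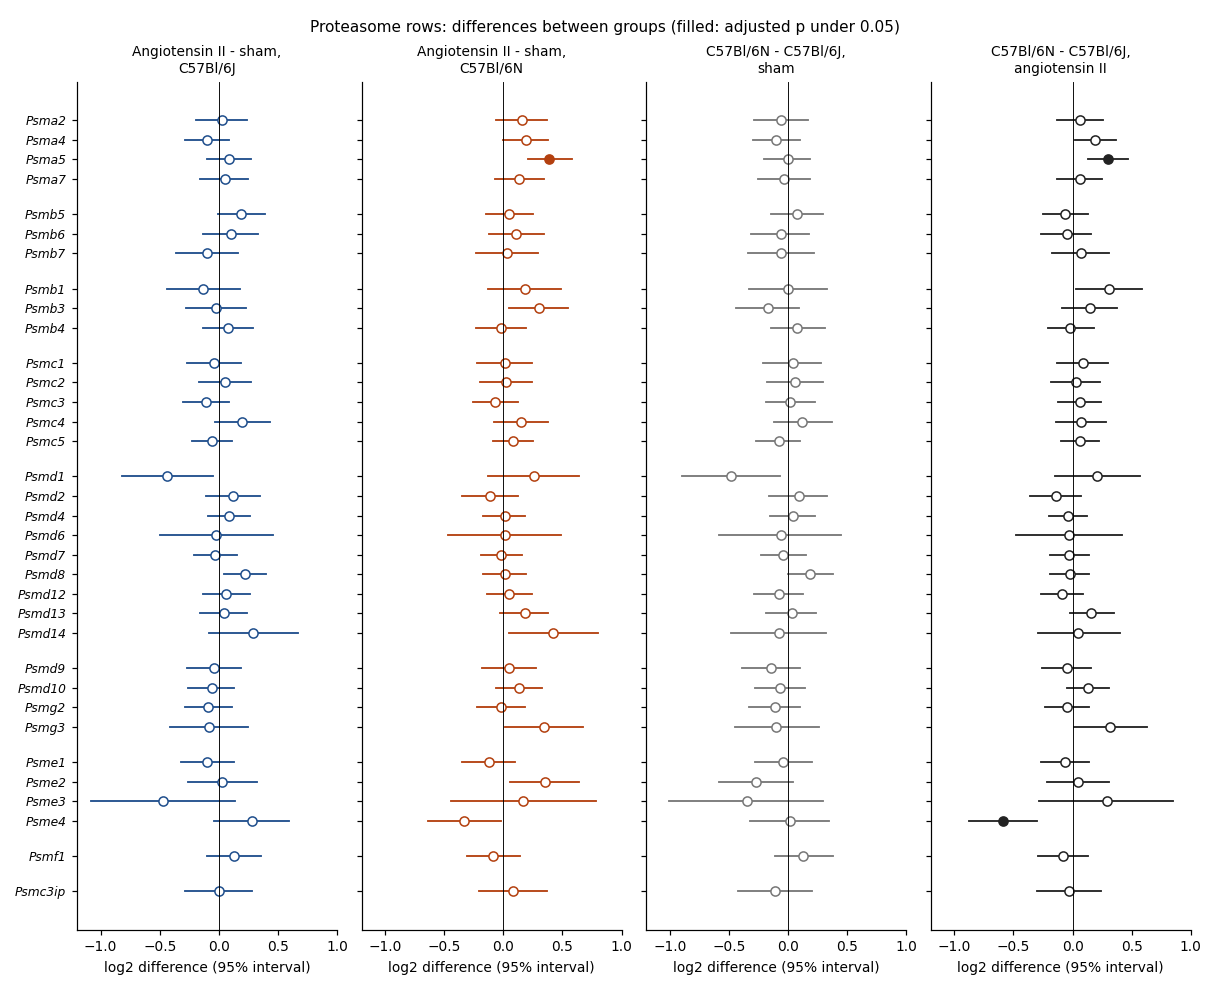
Log2 difference of each of the 34 tested rows, grouped by role, in 4 comparisons: angiotensin II minus sham in each substrain, and C57Bl/6N minus C57Bl/6J in sham and under angiotensin II. Points are limma estimates, lines are 95% intervals, and filled points have an adjusted p under 0.05. The filled points are Psma5 in C57Bl/6N (0.39) and, under angiotensin II, Psma5 (0.30) and Psme4 (-0.59).

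The members called were counted beside the share over all rows. In C57Bl/6J and for the difference of the responses that share was so low that 0 of 34 says little about the members. In C57Bl/6J the 1.4% of rows called were 132 of 9408. At an unadjusted p under 0.05 there were 1 higher and 1 lower member in C57Bl/6J (5.88%, against 15.3% of rows). In C57Bl/6N 1 of 34 was called, against 17.4% of rows (889 higher and 745 lower), and the unadjusted count was 6 higher and 1 lower (20.6%, against 31.4%). With the substrains averaged it was again Psma5 alone, against 15.8% of rows in either direction and 8.32% that rose. For the difference of the responses 0 of 34 passed, against 0.0106% of rows, and the unadjusted count was 3 higher and 1 lower (11.8%, against 17.5%). Besides Psma5 and Psmd14, the members with the smallest p in the average were Psmc4 (0.18 ± 0.08), Psme2 (0.19 ± 0.10) and Psmd8 (0.12 ± 0.06), with adjusted p of 0.135, 0.195 and 0.214. For the difference of the responses, Psmb3 (0.32 ± 0.17, adjusted p = 0.325) followed Psme4, Psmd1, Psma5 and Psma4.

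The median difference of the 34 members was 0.01 in C57Bl/6J, where that of all rows tested was -0.01. In C57Bl/6N it was 0.06 among members and -0.04 among all rows. Positive differences were seen for 17 of 34 members in C57Bl/6J (50%, against 47.9% of rows) and for 26 of 34 in C57Bl/6N (76.5%, against 43.5% of rows). Every member's estimate was under 1.5-fold in both substrains, as was that of 97% of all rows in C57Bl/6J and 91.3% in C57Bl/6N. The 95% interval of the difference lay wholly within 1.5-fold in either direction for 30 members in C57Bl/6J (88.2%, against 78% of rows) and for 28 in C57Bl/6N (82.4%, against 66.9%). A 1.5-fold change lies outside those intervals. The median SD between arrays of a group was 0.125 for the members and 0.175 for all rows tested.

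**Figure D3:**
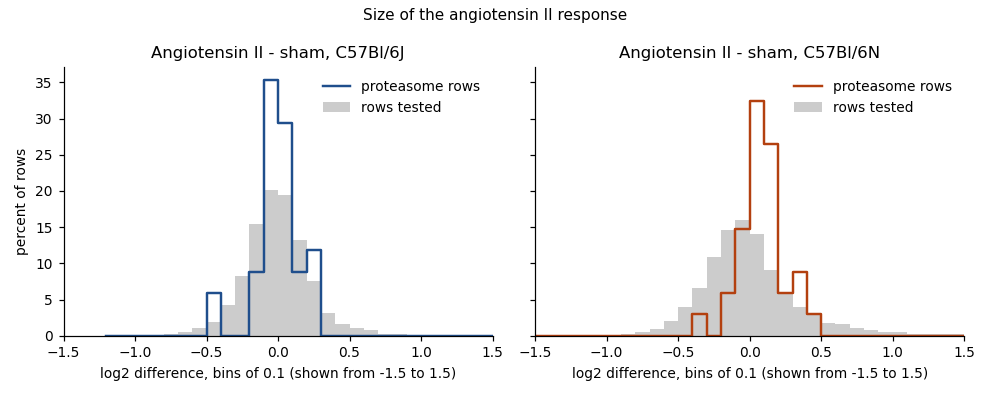
Share of rows in bins of 0.1 log2 units of the angiotensin II minus sham difference, for the 34 proteasome rows (line) and all 9408 rows tested (grey), in C57Bl/6J and C57Bl/6N. The 5th and 95th percentiles are -0.24 and 0.24 for the proteasome rows and -0.37 and 0.38 for all rows in C57Bl/6J, and -0.12 and 0.37 against -0.48 and 0.66 in C57Bl/6N.

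Arrays of the compared groups did not overlap for 4 members in C57Bl/6J, Psmb5, Psmc4 and Psmd8 upward and Psmd1 downward, against 17.1% of rows. They did not overlap for 4 members in C57Bl/6N, Psma4, Psma5 and Psmd14 upward and Psmd2 downward, against 28.2% of rows. Both member counts, 4 of 34, were below the background share.

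Marker rows of other cell types and of the cell cycle also changed in the C57Bl/6N samples in which Psma5 rose. Of 10 tested macrophage and monocyte marker rows 9 rose in C57Bl/6N, and their summed normalised intensity was 11300 to 14300 on sham and 16900 to 35500 on treated arrays. In C57Bl/6J 0 of 10 were called, against 1.4% of all rows, and the sums were 13000 to 16300 and 14500 to 15800. These sums mostly follow the rows of highest intensity, Lyz1 and Lyz2, at 14.20 and 13.55 on C57Bl/6N angiotensin II replicate 1. Itgam was below background on all arrays. All 7 tested cell cycle rows, of 9 listed, rose in C57Bl/6N, with sums of 339 to 383 in sham and 824 to 2130 with angiotensin II. In C57Bl/6J 1 of these rows, Prc1, was called, and every difference was positive (median 0.59). The C57Bl/6J sums were 372 to 443 in sham and 465 to 950 with angiotensin II. By signal, Ccnb1 and Rrm2 were above background on 3 treated C57Bl/6N arrays only, and Birc5 on treated arrays only. The detection filter can keep such rows through the group where they are high, so the count of 7 may be partly set by it. Fibroblast markers rose for 3 of 7 rows (Col1a1, Col1a2 and Lum), and 1 of 7 tested endothelial rows, Emcn, fell. Of 9 cardiomyocyte rows 0 were called, although 8 of the 9 differences were negative (median -0.22). Over all rows tested, 17.4% were called in C57Bl/6N, 9.45% upward, 43.5% of differences were positive and the median was -0.04. As deviations from the 6 sham arrays' mean, the median of the macrophage rows was 1.09, 0.75, 1.16 and 0.24 on treated C57Bl/6N replicates 1 to 4, and that of the cell cycle rows was 2.06, 1.73, 2.26 and 0.93. Both medians ranked these 4 arrays in the same order as Psma5. The cardiomyocyte median was -0.31, -0.14, -0.39 and -0.03, the reverse order. On replicate 4 the macrophage median was near that of C57Bl/6N sham replicate 3 (0.21), and Psma5 was 12.09 against 11.84. On treated C57Bl/6J replicates 1 to 4 the cell cycle median was 0.10, 1.04, 0.92 and 0.64. Psma5 was 11.85, 11.94, 11.98 and 11.83 on these arrays, a different order. Whether the marker changes reflect cell number or RNA per cell, and their part in the Psma5 increase, were not tested.

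**Figure D4:**
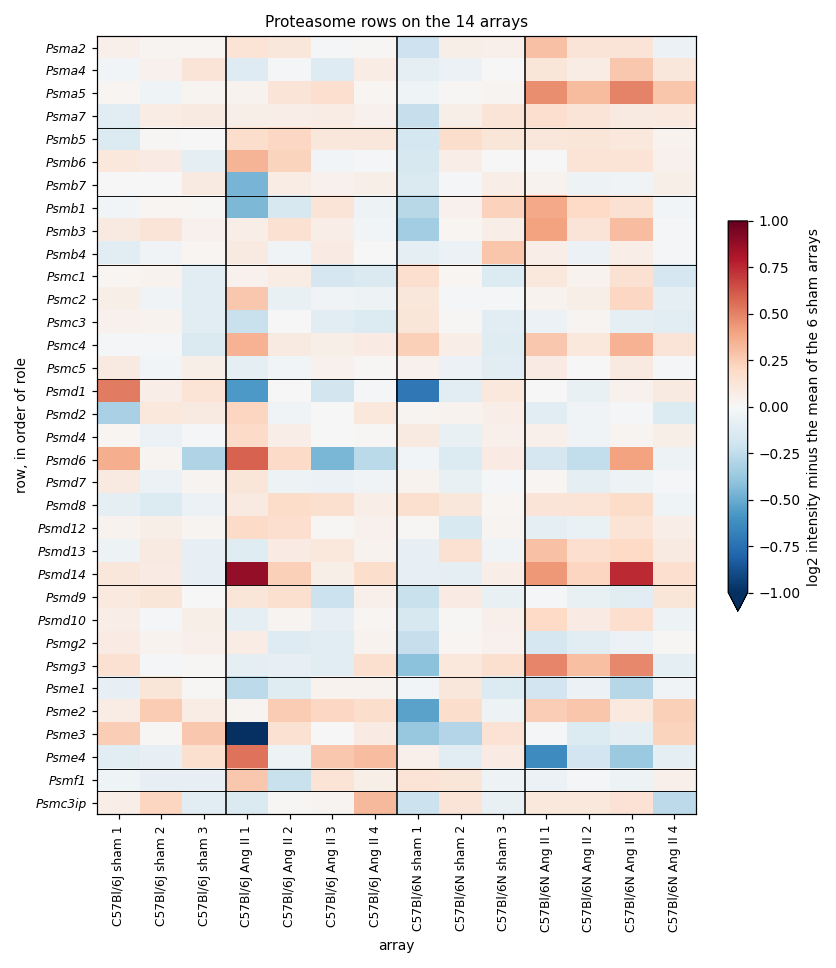
Log2 intensity of each proteasome row on each of the 14 arrays minus its mean over the 6 sham arrays, with rows in order of role and arrays in order of group. Colours run from -1 to 1. The lowest value, -1.41, is Psme3 on C57Bl/6J angiotensin II replicate 1 and is drawn at the end of the scale. The treated C57Bl/6N columns are red for Psma5, and C57Bl/6N sham replicate 1 is blue for many core, chaperone and activator rows.

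Between untreated substrains, 0 of 34 members were called, against 0.0213% of rows. At an unadjusted p under 0.05 there were 1 higher and 1 lower member (5.88%, against 7.62% of rows), and the smallest adjusted p was 0.574. The members with the smallest p were Psmd1 (-0.48 ± 0.19), Psmd8 (0.19 ± 0.09), Psme2 (-0.27 ± 0.14), Psmb3 (-0.17 ± 0.13) and Psmd9 (-0.14 ± 0.12). Only Psmd8 had groups that did not overlap, against 15.8% of rows. Without C57Bl/6N sham replicate 1 the difference was -0.24 for Psmd1, -0.07 for Psme2, -0.04 for Psmb3 and -0.07 for Psmd9. The median over the members was -0.05, against 0.01 over all rows, and -0.01 without that array. For 32 of 34 members (94.1%, against 79.2% of rows) the 95% interval lay within 1.5-fold.

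Under angiotensin II, 2 of 34 members differed between the substrains, against 9.25% of rows (5.46% higher and 3.78% lower in C57Bl/6N). Besides Psme4, which was lower in C57Bl/6N, Psma5 was higher by 0.30 ± 0.08, or 1.23-fold (adjusted p = 0.0305). The Psma5 call was lost without C57Bl/6J angiotensin II replicate 4 (0.28, adjusted p = 0.0844) and without C57Bl/6N angiotensin II replicate 1 (0.28, 0.116), replicate 2 (0.32, 0.0526) or replicate 3 (0.26, 0.115). It was also lost with median scaling in place of quantile normalisation (0.29, adjusted p = 0.0889). When only the groups compared were fitted, 0 members were called, so that both calls were lost. Next by p were Psma4 (0.19 ± 0.08, adjusted p = 0.147), Psmb1 (0.31 ± 0.13, 0.153) and Psmg3 (0.32 ± 0.14, 0.174), none past the test. Psmg3 passed with array weights (adjusted p = 0.037) and without C57Bl/6N angiotensin II replicate 4 (0.45, adjusted p = 0.0325). The groups did not overlap for Psma5, Psma7 and Psme4, against 15.1% of rows. The catalytic subunits differed by -0.06 (Psmb5), -0.05 (Psmb6) and 0.07 (Psmb7). In this comparison 6 of 10 macrophage rows and 6 of 7 cell cycle rows were also higher in C57Bl/6N. So were 2 of 7 fibroblast rows, Col1a1 and Tcf21, while 1 of 9 cardiomyocyte rows, Tnni3, was lower. Of the fibroblast differences 3 were positive and 4 negative (median -0.07), and of the cardiomyocyte differences 3 were positive and 6 negative (median -0.14). Col1a1 was 8.10 on C57Bl/6J angiotensin II replicate 1, against 10.48 to 11.08 on the rest of its group. The limit given above for Ccnb1 and Rrm2 holds here too. The part of these marker rows in either call was not tested.

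The immunoproteasome subunits Psmb8, Psmb9 and Psmb10 replace the catalytic subunits in cells exposed to interferon. All 3 were detected on the 14 arrays, and none was called in either substrain. Their differences with angiotensin II were -0.03 ± 0.14, -0.20 ± 0.12 and 0.16 ± 0.11 in C57Bl/6J, and -0.10 ± 0.14, -0.11 ± 0.12 and 0.17 ± 0.11 in C57Bl/6N. In C57Bl/6N the catalytic and the immunoproteasome subunits all had differences of at most 0.17 in size.

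Nfe2l1, whose product NRF1 is known in mammalian cells to drive subunit genes, was 12.62, 12.33 and 12.48 in C57Bl/6N sham. With angiotensin II it was 12.03, 12.12, 12.17 and 12.48. Replicate 4 lay within the sham range and the other arrays below it. The difference was -0.27 ± 0.11 in C57Bl/6N (adjusted p = 0.108) and -0.07 ± 0.11 in C57Bl/6J (adjusted p = 0.803). Nfe2l1 passed in C57Bl/6N without angiotensin II replicate 4 (-0.37, adjusted p = 0.0174). It did not pass in the other 21 of 22 alternatives. With an array left out in turn the difference ran from -0.37 to -0.20 (adjusted p 0.0174 to 0.327).

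Of the 7 rows not kept, Psmb2 lay just outside the detection limit, detected on 2 arrays, and Psmc6 and Psmd11 were detected on 1. Psma1, Psma3, Psma6 and Psmd5 were detected on 0. The rows Psmb2, Psmd5 and Psmd11 had a signal at or above the lowest signal of a detected row of 1 probe on all 14 arrays although their detection p did not pass. When rows were kept by signal instead, 37 members were tested and these 3 added no call. Their differences in C57Bl/6N were 0.16 ± 0.11 for Psmb2, 0.06 ± 0.13 for Psmd5, an assembly chaperone, and 0.03 ± 0.10 for Psmd11, a lid subunit.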

How the data were processed

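Total RNA from left ventricles was labelled as biotin cRNA and hybridised to Illumina arrays, per the labels' protocols. The authors deposited, per the file headers, a signal intensity and a detection p-value for each gene row on each array, without normalisation. A second deposited intensity table equals a quantile normalisation of those signals. The array software was not given in the sources used here.

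Intensities were corrected by normexp with an offset of 16, with background mean and SD estimated from rows whose detection p-values lie on the steps of 1 probe (14215 of 18138), quantile normalised and taken to log2. The detection p-value filter (under 0.05 on at least 3 arrays) left 9408 rows (51.9%). The 4 group means were estimated in one model with limma 3.58.1 in R 4.3.3 (lmFit, contrasts.fit, eBayes), and p-values were Benjamini-Hochberg adjusted over all 9408 rows. A call is an adjusted p under 0.05. Errors are SE unless SD is written. The number of arrays limits the precision, with 10 residual and 4.8 prior degrees of freedom. Names were matched to RefSeq through current (14309 rows) or older symbols (2907), and 922 were unmatched. The fit was tested on simulated data with larger changes than that of any member, so its power at the sizes reported was not tested.

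Named in each comparison were the members that passed or, where under 5 did, the 5 with the smallest p, together with the catalytic subunits, activators, inhibitor, immunoproteasome subunits and Nfe2l1, and companion genes that passed. Other members were named to account for each. The members, lists and tests were chosen with earlier results of these data known. Alternatives changed the background, normalisation, filter, offset, weights or arrays used, 1 at a time. Sequences were read with Python 3.11.15.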

Additional observations from a re-analysis of the deposited data

Results flagged for a closer look

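Groups of 4 arrays were examined for 1 array standing far from the rest, over 22 named genes and the members' median, 46 groups in all. In 5 of them the gap between the extreme array and its nearest neighbour exceeded Dixon's 95% critical share of the group's range, and chance marks about 1 in 20 groups. On C57Bl/6J angiotensin II replicate 1, Psmc4 was 11.13 (others 10.84 to 10.87), Psmb7 was 11.63 (others 12.14 to 12.17) and Psme3 was 9.02 (others 10.42 to 10.58), all in log2 intensity. On C57Bl/6J angiotensin II replicate 4, Psmg3 was 8.34 (others 8.07 to 8.10). On C57Bl/6N angiotensin II replicate 3, the immunoproteasome subunit Psmb10 was 10.44 (others 10.57 to 10.60).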

How the results depend on the processing

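No paired analysis was possible because the replicate numbers follow the order of the samples and pair nothing. The Psma5 call in C57Bl/6N was kept under all 22 alternatives run on it (adjusted p 0.00205 to 0.0278), and 0 members were called in C57Bl/6J, in sham or for the difference of the responses under any. With median scaling in place of quantile normalisation the members' median was -0.05 in C57Bl/6J and 0.15 for the difference of the responses, and under angiotensin II 1 member, Psme4, still differed between substrains. Array weights called 2 members in C57Bl/6N and 2 with the substrains averaged (Psma5 and Psmd14), and 3 under angiotensin II (Psma5, Psme4 and Psmg3). Fitting only the groups compared called 0 under angiotensin II. Leaving out each array in turn gave 1 to 3 calls in C57Bl/6N, 1 to 2 averaged and 0 to 3 under angiotensin II. The members' medians ran from 0.04 to 0.11 in C57Bl/6N, from -0.09 to -0.01 in sham and from 0 to 0.06 under angiotensin II. Calls added in C57Bl/6N were Psmd14 without C57Bl/6J angiotensin II replicate 1, Psme2 without C57Bl/6N sham replicate 2 (adjusted p = 0.0252), and Psmb3 and Psmg3 without C57Bl/6N angiotensin II replicate 4 (0.0389 and 0.0294). Over all rows, calls in C57Bl/6J numbered 132, against 67 with neqc, 559 with array weights and 1 without sham replicate 2. Calls in C57Bl/6N numbered 1634, against 2665 with array weights and 950 at fewest with an array left out. Averaged over substrains they numbered 1487, against 2619 with array weights. Under angiotensin II they numbered 870, against 2241 with array weights, 249 with only the groups compared, and 198 to 1473 with an array left out. With array weights the counts over all rows thus grew along with those of the members.

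Of 3168 refitted gene values 122 changed sign, 12 of them by more than 1 SE and none of the 12 called in either fit. With median scaling Psmd9 was 0.05 and Psmf1 0.02 under angiotensin II. With array weights Psmb10 was 0.14 in sham, and under angiotensin II Psmb7 was -0.05 and Psme3 -0.07. Without C57Bl/6J angiotensin II replicate 1, Psmb7 was 0.03 in C57Bl/6J, and under angiotensin II Psmb7 was -0.06, Psme3 -0.08 and Stat3 0.07. Without C57Bl/6N sham replicate 1, Psmb5 was -0.06 in C57Bl/6N, and Psmg3 and Psmb10 were 0.08 and 0.11 in sham. Over all arrays left out in turn, Psmb7 ran from -0.15 to 0.03 in C57Bl/6J and from -0.06 to 0.12 under angiotensin II, Psme3 from -0.08 to 0.44 and Stat3 from -0.10 to 0.07 under angiotensin II, Psmb5 from -0.06 to 0.12 in C57Bl/6N, and Psmg3 from -0.20 to 0.08 and Psmb10 from -0.13 to 0.11 in sham. Apart from the arrays left out, the cause of each shift was not tested.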

Other observations

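Genes that work beside the proteasome were counted from companion lists. Over all rows tested, 1.4% were called in C57Bl/6J and 17.4% in C57Bl/6N, so lists this short could hold few calls or none. Of 8 tested associated constituents, such as the deubiquitinases Usp14 and Uchl5 and the assembly factor Pomp, 0 were called in either substrain, and Usp14 differed by -0.01 ± 0.19 in C57Bl/6J and -0.12 ± 0.19 in C57Bl/6N. Of 8 rows (7 genes) for ubiquitin, activating enzymes and shuttle receptors 0 were called, with the polyubiquitin gene Ubb at -0.10 ± 0.09 and 0.04 ± 0.09. The 2 rows of Uba1, an activating enzyme, differed in sign in C57Bl/6J (-0.17 and 0.29). Of 7 rows for antigen processing 0 were called. Tap1 came nearest, at -0.70 ± 0.17 in C57Bl/6J without overlap (adjusted p = 0.0551), and was 0.06 ± 0.17 in C57Bl/6N. In C57Bl/6J 5 of the 7 differences were negative and 2 positive.

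Of 8 rows for the unfoldase p97 and its cofactors, the cofactor Ubxn6 fell in C57Bl/6N. It was 9.61, 9.66 and 9.56 in sham and 9.35, 9.37, 9.22 and 9.40 with angiotensin II, without overlap, a difference of -0.27 ± 0.09 (adjusted p = 0.0401, with a range of 0.00959 to 0.123 over the alternatives). The call was lost in 13 of 22 alternatives. The p97 gene Vcp differed by -0.05 ± 0.11. The list drawn up for the proteasome recovery response had 10 rows, of which 4 were tested. Nfe2l1, Ddi2 and Mafg were not called in either substrain, whereas Stat3 rose in C57Bl/6J. It was 9.73, 9.92 and 9.85 in sham and 10.69, 10.19, 10.29 and 10.28 with angiotensin II, without overlap, a difference of 0.53 ± 0.11 (adjusted p = 0.0358, with a range of 0.0045 to 0.173 over the alternatives). This call was lost in 8 of 22. In C57Bl/6N the Stat3 difference was 0.18 ± 0.11 (adjusted p = 0.304). The difference of the responses did not pass for Stat3 (-0.35 ± 0.16, adjusted p = 0.284) or Ubxn6 (-0.29 ± 0.12, adjusted p = 0.241).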
